A study of Mus musculus with 12 samples.

Results

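The 39 genes described here are interferon receptors, the transcription factors that act downstream of them, and genes that interferons induce, chosen by gene name from the probe annotation of the array, with earlier results of these data known. They were read by 74 of the 45281 probes of the array, which names 19057 genes by 1 symbol. The arrays measured bulk RNA of HT-22 cells, a mouse hippocampal cell line immortalized with the SV40 T antigen. The cells had been grown in serum stripped of thyroid and steroid hormones, and were then held for 4 h in serum-free medium with vehicle, 30 nM T3 (the thyroid hormone triiodothyronine), 100 nM CORT (the glucocorticoid corticosterone) or both hormones (T3 + CORT). Each of the 4 groups, vehicle included, contained 0.03% DMSO and 0.001% ethanol, and each was hybridized to 3 Illumina mouse arrays. No group received an interferon. The study asked how each hormone, and the pair together, altered transcript levels in these cells.

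Interferons bind paired receptor chains at the cell surface (IFNAR1 with IFNAR2 for type I interferons, IFNGR1 with IFNGR2 for interferon gamma) and activate JAK kinases and STAT transcription factors. Type I interferons assemble STAT2 and IRF9 on interferon-stimulated response elements (ISRE), while interferon gamma acts through gamma-activated sites (GAS) and through IRF1, itself an interferon-induced factor. The induced genes encode antiviral proteins, large and immunity-related GTPases, sensors of viral RNA, and parts of the antigen presentation machinery, and glucocorticoids are known to restrain parts of this program in immune cells.

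The start regions of these genes hold the letters of the response elements more often than those of other genes. In windows from 250 bases before to 50 bases after the annotated start (RefSeq, GRCm38.p6), the ISRE core (GAAA and GAAA with any 2 bases between) was found on either strand in 17 of the 35 windows of 31 matched members (48.6%), against 3.44% of all 32851 windows, and GAS (TTC and GAA with any 3 bases between) in 11 of 35 (31.4%) against 8.30%. The letters of the glucocorticoid response element (GNACA and TGTNC with any 3 bases between) were in 0 of the 35 windows and in 0.475% of all windows, and the direct repeat bound by thyroid hormone receptors (AGGTCA and AGGTCA with any 4 bases between) in 0 of 35 and in 0.0152%. The 150 bases before the start site are shown, 5′ to 3′, for 3 GTPase genes whose signal differed between groups and for *Irf1* and *Isg15*, whose probes are discussed with them. Capitals mark letters that match ISRE core or GAS, and overlapping matches run together.
Gbp2: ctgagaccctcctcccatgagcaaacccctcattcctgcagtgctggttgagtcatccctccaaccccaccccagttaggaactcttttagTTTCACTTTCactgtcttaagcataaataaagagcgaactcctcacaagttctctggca
Gbp3: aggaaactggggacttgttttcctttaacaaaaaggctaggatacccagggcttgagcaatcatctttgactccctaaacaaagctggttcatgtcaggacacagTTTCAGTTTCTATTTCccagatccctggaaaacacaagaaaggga
Igtp: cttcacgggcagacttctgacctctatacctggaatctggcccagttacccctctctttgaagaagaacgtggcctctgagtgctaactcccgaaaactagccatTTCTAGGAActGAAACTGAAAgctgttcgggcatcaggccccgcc
Irf1: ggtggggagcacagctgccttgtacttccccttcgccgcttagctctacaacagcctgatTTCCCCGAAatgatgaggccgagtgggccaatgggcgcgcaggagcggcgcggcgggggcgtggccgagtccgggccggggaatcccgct
Isg15: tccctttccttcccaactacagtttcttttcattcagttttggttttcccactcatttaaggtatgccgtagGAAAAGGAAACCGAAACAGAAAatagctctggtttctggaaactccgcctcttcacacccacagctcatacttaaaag

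These stretches lie at chr3:142620513-142620662 for *Gbp2*, chr3:142559894-142560043 for *Gbp3*, chr11:58199406-58199555 for *Igtp* and chr11:53769864-53770013 for *Irf1*, all on the plus strand, and at chr4:156200819-156200968 on the minus strand for *Isg15*. *Gbp2* held 1 ISRE core match from -59 to -50 relative to the start site, *Gbp3* held 2 that overlap between -45 and -30, and *Igtp* held 1 from -34 to -25 beside a GAS match from -45 to -37. *Irf1* held a GAS match from -90 to -82 and *Isg15* held 3 overlapping ISRE core matches between -78 and -57. A match is a description of letters, not of a bound site.

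**Figure D1:**
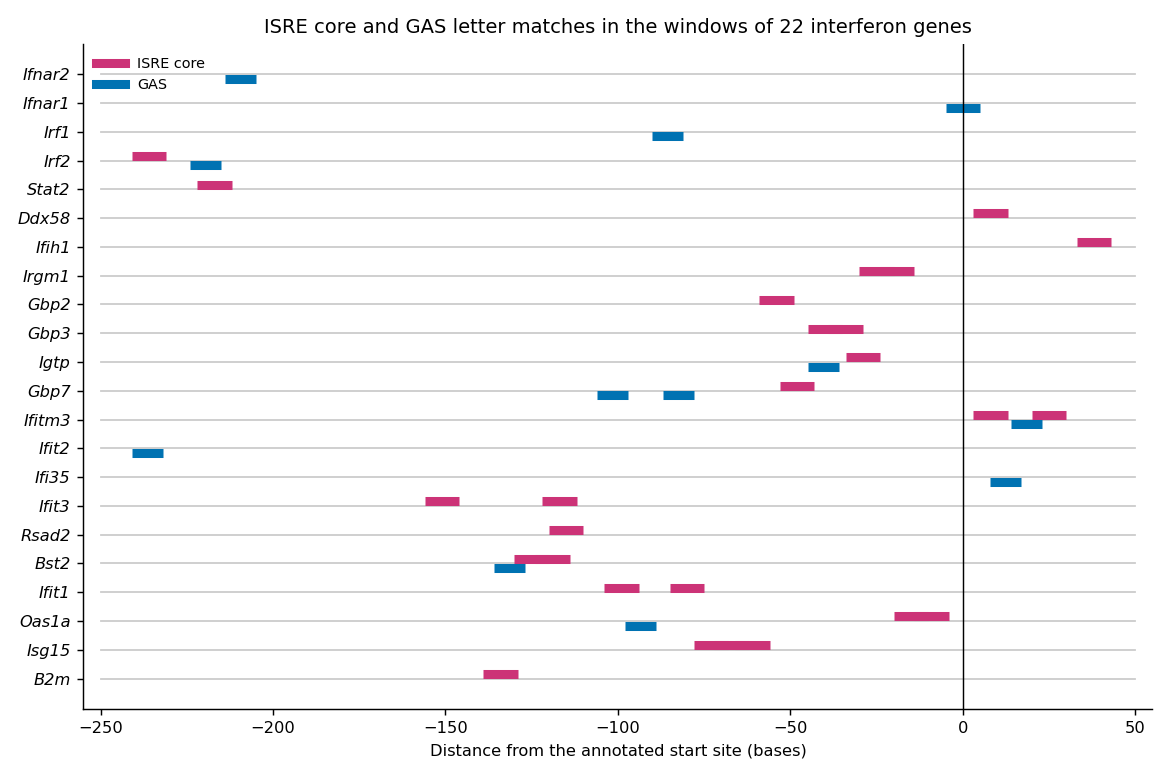
Positions of ISRE core (pink) and GAS (blue) letter matches relative to the annotated start site, in bases, for the 22 of 31 matched interferon genes with either match in the window from 250 bases before to 50 after the start. Most ISRE core matches of the GTPase genes lie within 60 bases before the start.

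The deposited signals were already normalized by the authors, and the 12 arrays share 1 distribution. Per array, 16520 to 16544 probes lay at or above 87.0, the signal taken as the limit of detection. Of all probes, 17746 reached this limit on at least 3 arrays and were tested, and 25612 stayed under it throughout. Every comparison was read from a single limma model, in which the 4 groups left 8 residual degrees of freedom. Each adjusted p is corrected by the Benjamini-Hochberg method for all 17746 probes of its comparison. T3 replicate 2 stood slightly apart, with a median correlation with the other arrays of 0.9857 against 0.9884 to 0.991. By the paper's methods each hormone treatment was done in triplicate before RNA extraction. Neither they nor the labels say whether the triplicates were independent experiments, so the p values measure only the spread between these arrays. The labels do not name slides either, and a slide shared by the arrays with CORT cannot be told apart from CORT. Of the cell type markers, all 5 measured glial genes lay below the limit on every array, as did *Ptprc*, *Itgam*, *Cx3cr1* and *Cd3e* among 8 immune genes. Of the other immune genes, *Aif1* and *Csf1r* passed it on 1 array each, and *Cd74* and *Lyz2* on all 12. The neuronal genes *Map2*, *Rbfox3*, *Nefl*, *Nefm* and *Snap25* were below it too, with *Eno2* and *Syn1* above on all arrays and *Syp* and *Tubb3* on 3, while all 7 fibroblast and mesenchymal genes were above it. As the RNA was bulk, fewer cells with a transcript and less of it per cell cannot be told apart.

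Most of the interferon genes were expressed in HT-22 cells without any interferon added. At least 1 probe of 27 of the 39 genes lay at or above the limit on all 12 arrays, *Usp18* passed it on 10 arrays, and 11 genes lay below it on every array. Those below the limit were the antiviral GTPases *Mx1* and *Mx2*, the GTPases *Gbp4*, *Gbp7* and *Iigp1*, the effectors *Ifit1* and *Oas1a*, the RNA sensor *Ifih1*, the transcription factor *Irf7*, the receptor chain *Ifnar1* and *Parp9*. For these only a bound can be given, in every group. Hence 46 probes of 28 genes were tested, and the counts below cover those, not all members. Of the interferon genes themselves, *Ifnb1*, *Ifng*, *Ifnk*, *Ifne*, *Ifna2* and *Ifna4* lay below the limit on every array, and 1 of the 3 *Ifna1* probes reached it on 5 arrays with a mean of 81.7 on vehicle.

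**Figure D2:**
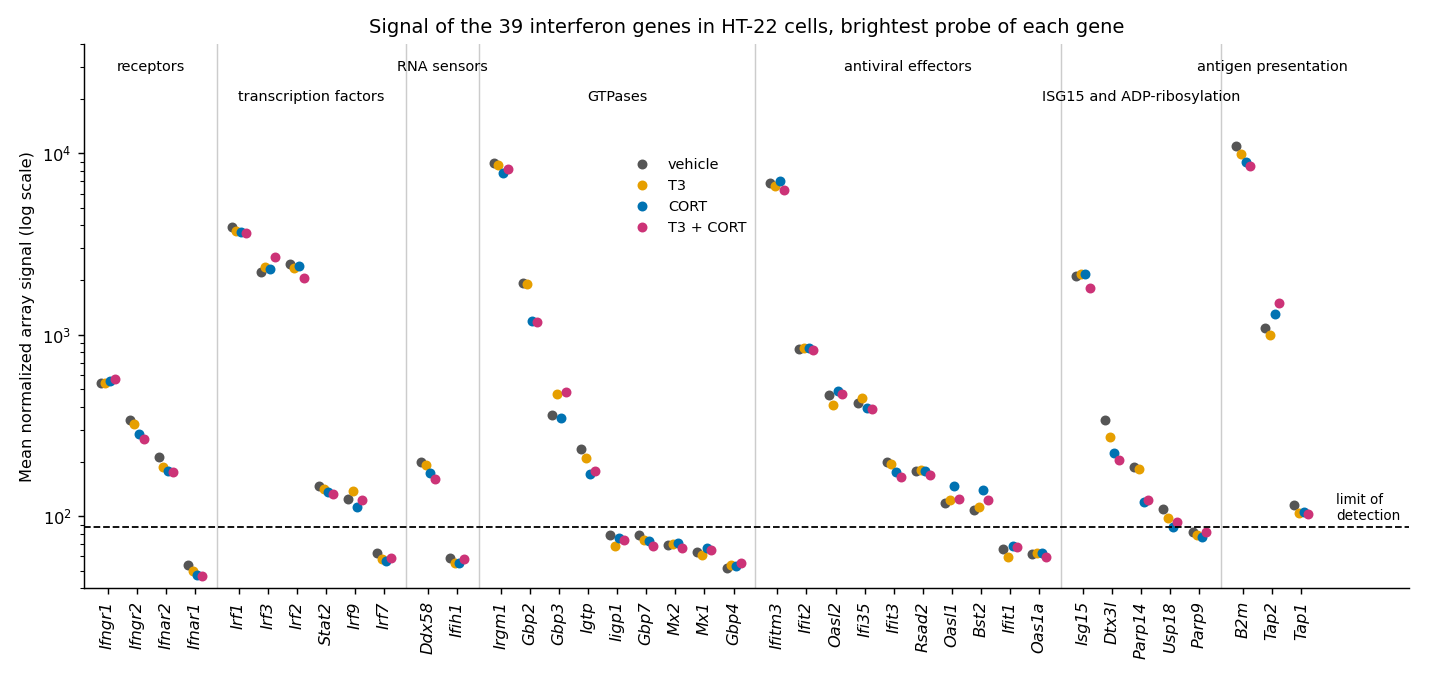
Mean normalized array signal (log scale) of the brightest probe of each of the 39 interferon genes in the 4 groups of 3 arrays, grouped by role, with the limit of detection at 87.0 as a dashed line. The 11 genes without a tested probe lie under the line in every group. The height of different probes cannot be compared, as each probe has its own brightness.

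A minority of the 46 tested probes was called on CORT and on T3 + CORT. The shares of all tested probes called are given beside those of the members. Where arrays are said below not to overlap between groups, the share of all tested probes that separate so is not given. Most probes shown array by array were picked by a small p, so the separation of their arrays adds no further support. On T3, 0 of the 46 probes had an adjusted p under 0.05 in the limma fit, against 0.0902% of all tested probes. An unadjusted p under 0.05 was found for 5, and the share of all tested probes at that limit was not counted. On CORT, 7 probes were lower (15.2%) and 2 higher (4.35%), against 10.8% lower and 9.87% higher among all tested probes. On T3 + CORT, 13 were lower (28.3%) and 2 higher (4.35%), against 10.6% and 10.1%. Counting each gene by its brightest tested probe, 5 of 28 genes were lower and 2 higher on CORT, and 9 lower and 2 higher on T3 + CORT. The share over all genes, counted this way, was not taken. The 3 comparisons share the vehicle arrays. The median log2 fold change of the 46 probes was -0.08 on CORT and -0.11 on T3 + CORT, where that of all tested probes was -0.01 in both. The study's own limits were a p below 0.02 before adjustment together with a change of 1.5-fold or more. By these, 3 probes, of *Gbp2*, *Dtx3l* and *Parp14*, were lower on CORT and the same 3 on T3 + CORT, against 0.783% and 0.885% of all tested probes.

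Among the receptor chains, *Ifngr2*, the signalling chain of the interferon gamma receptor, gave the only called change. Its brightest probe (ILMN_2784272) read 343.4, 346.3 and 325.7 on vehicle, 303.8, 362.6 and 297.7 on T3, 280.2, 291.8 and 276.7 on CORT, and 269, 295.9 and 235.5 on T3 + CORT. All 6 arrays with CORT lay below the 6 without it, and the T3 and vehicle arrays overlapped. On T3 + CORT the log2 fold change was -0.35 (standard error 0.10, adjusted p = 0.019), and on CORT -0.26 (adjusted p = 0.073). Its other 2 probes were not called against vehicle, and 1 of them (ILMN_1258300) was lower with both hormones than with T3 alone, at -0.29 (adjusted p = 0.040). Without vehicle replicate 1 or 2 or T3 + CORT replicate 3 the call of the brightest probe was lost, with an adjusted p of up to 0.10, and that of ILMN_1258300 was lost without any of 6 arrays (T3 replicates 1 and 3, CORT replicates 2 and 3, T3 + CORT replicates 1 and 2). With no filter on dim probes, or with only the T3 and T3 + CORT arrays in the fit, ILMN_1258300 was not called either (adjusted p = 0.074 and 0.088). It was also lost with the limit of detection taken from the normalized values alone. *Ifngr1*, the ligand-binding chain, had means from 541 to 571 in the 4 groups. *Ifnar2*, the chain that binds type I interferon with high affinity, had no call at any of 3 probes, with the brightest at -0.26 on CORT (adjusted p = 0.069).

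*Irf1*, the transcription factor that carries much of the interferon gamma response, was read differently by its 5 probes. At ILMN_2599782 the signal was 1162, 1048.6 and 1048.6 on vehicle, 984, 1190.8 and 1034 on T3, 681, 915.1 and 851.4 on CORT, and 824, 845.1 and 826.1 on T3 + CORT. No array with CORT reached the lowest array without it. Its log2 fold changes were -0.42 on CORT (standard error 0.10, adjusted p = 0.0092), -0.38 on T3 + CORT (adjusted p = 0.016) and, for T3 + CORT against T3, -0.36 (adjusted p = 0.021). At ILMN_2649068 the arrays read 457.1, 432.8 and 405 on vehicle, 342.7, 487.7 and 366.4 on T3, 351.8, 354.9 and 341.8 on CORT, and 335.5, 320 and 349.9 on T3 + CORT. All 6 arrays with CORT were below the vehicle arrays here too, and the log2 fold change was -0.36 on T3 + CORT (adjusted p = 0.026) and -0.30 on CORT (adjusted p = 0.060). The brightest *Irf1* probe (ILMN_2834777) showed no such shift. It read 3941.2, 3825.1 and 3941.2 on vehicle, 3934.3, 3664.1 and 3627.5 on T3, 3888.8, 3527.9 and 3667.2 on CORT, and 3708.3, 3825.1 and 3422 on T3 + CORT. Its groups overlapped, and its log2 fold changes were -0.08 on CORT (95% interval -0.23 to 0.07) and -0.10 on T3 + CORT (95% interval -0.25 to 0.05). The remaining probes were not called, at -0.13 (ILMN_2624100, mean 124.5 on vehicle) and -0.15 (ILMN_2649067, mean 447 on vehicle) on CORT. The CORT call at ILMN_2599782 was lost without vehicle replicate 1 or CORT replicate 1 (adjusted p up to 0.053), its T3 + CORT call without vehicle replicate 1 (0.076), and its call against T3 without T3 replicate 2 or any 1 T3 + CORT array (up to 0.062). The T3 + CORT call at ILMN_2649068 was lost without vehicle replicate 1 or 2 or T3 + CORT replicate 1 or 2 (up to 0.10).

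The other tested transcription factors of the list were not called in any comparison. *Stat2*, the partner of IRF9 in the type I response, read 146.2, 152.7 and 141.5 on vehicle, 174.3, 124.6 and 124 on T3, 134, 136.6 and 138.3 on CORT, and 125.9, 130.2 and 141.8 on T3 + CORT. The CORT arrays lay just below the vehicle arrays and the other groups overlapped them, and the log2 fold change on CORT was -0.11 (95% interval -0.34 to 0.12, adjusted p = 0.53). *Irf9* (ILMN_1233461) read 125.3, 132.4 and 114.6 on vehicle, 140.2, 135.4 and 135.7 on T3, 116.2, 119.1 and 100.4 on CORT, and 114.8, 125.7 and 126 on T3 + CORT. All 3 T3 arrays were above the others, at 0.15 over vehicle on the log2 scale (95% interval -0.04 to 0.33, adjusted p = 0.95). *Irf2*, which competes with IRF1 for its sites, had means of 2464 on vehicle and 2049 on T3 + CORT, and its log2 ratio was -0.26 (adjusted p = 0.065). *Irf3*, activated by viral RNA and DNA sensing, was at 0.27 on T3 + CORT at its brightest probe (adjusted p = 0.050) and nearer 0 at the other 2. Of the RNA sensors, *Ddx58*, which encodes RIG-I, read 192.4, 208 and 199.3 on vehicle and 141.6, 163.9 and 173.6 on T3 + CORT at its single tested probe. The T3 + CORT arrays were all lower (log2 fold change -0.33, adjusted p = 0.035), a call lost without any 1 vehicle array or without T3 + CORT replicate 1 or 2 (adjusted p up to 0.16), and also with no filter on dim probes (0.055).

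The GTPase genes called on CORT were lower, and those called on T3 + CORT went in both directions. *Gbp2*, a guanylate-binding protein that attacks pathogen vacuoles, read 1820.7, 1870.3 and 2080 on vehicle, 1898.9, 1862.9 and 1963.4 on T3, 1066.8, 1119.3 and 1384.2 on CORT, and 1120.5, 1168.3 and 1234.7 on T3 + CORT (ILMN_3122961). The highest array with CORT lay well below the lowest array without it. From 1924 ± 138 (SD, n = 3) in the vehicle group, the mean was 1.62-fold lower with CORT, at 1190 ± 170, and 1.64-fold lower with both hormones, at 1174 ± 57.4. The log2 fold changes were -0.70 (standard error 0.10, adjusted p = 8.1e-05) and -0.71 (adjusted p = 8.8e-05), and T3 + CORT against T3 gave -0.70 (adjusted p = 9.2e-05). That last fold change uses none of the arrays of CORT against vehicle. Its p value does, as the spread was estimated from all 12 arrays. T3 alone gave -0.01 (95% interval -0.21 to 0.19). These calls were kept without any 1 of the 12 arrays, and the other 2 *Gbp2* probes lay below the limit on every array.

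*Gbp3*, the neighbour of *Gbp7* on chromosome 3, with 1 protein-coding gene between it and *Gbp2* in the RefSeq order, moved otherwise. Its brighter probe (ILMN_1244513) read 349.1, 356.4 and 376.9 on vehicle, 472.3, 477.5 and 463.5 on T3, 310.1, 367.6 and 366.1 on CORT, and 499.3, 482.2 and 471.4 on T3 + CORT. All 6 arrays with T3 lay above all 6 without it. The log2 fold change of T3 + CORT was 0.48 over CORT (standard error 0.09, adjusted p = 0.012) and 0.43 over vehicle (adjusted p = 0.0024), while T3 against vehicle was 0.39 (95% interval 0.20 to 0.57) with an unadjusted p of 3.1e-04 in the limma fit that adjustment took to 0.13. CORT gave -0.06 (95% interval -0.24 to 0.12). At the second probe (ILMN_2918002) the arrays read 286.4, 299.6 and 310.9 on vehicle, 523.8, 401 and 382.8 on T3, 306.8, 306.2 and 245 on CORT, and 360.8, 353.8 and 354.1 on T3 + CORT. The 6 arrays with T3 were again above the 6 without, with log2 fold changes of 0.53 for T3 against vehicle (adjusted p = 0.11) and 0.32 for T3 + CORT against CORT (adjusted p = 0.35). The T3 + CORT call against CORT was lost without CORT replicate 1 or T3 + CORT replicate 1 or 2 (adjusted p up to 0.075), and that against vehicle was kept without any 1 array. Over all tested probes, 0.558% were called between T3 + CORT and CORT, and *Gbp3* was the 1 of 46 here. The interaction, the departure of T3 + CORT from the sum of the log2 effects of each hormone, was 0.10 (adjusted p = 0.95) and -0.21 (adjusted p = 0.91) at the 2 probes. An interaction was called for 0 of the 46 probes, against 0.113% of all tested probes. At an unadjusted p under 0.05 in the limma fit there was 1 (*Usp18*, adjusted p = 0.75). The share of all tested probes at that limit was not counted.

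*Igtp*, an immunity-related GTPase also called IRGM3, read 236.2, 221 and 244.5 on vehicle, 198, 224.7 and 209 on T3, 162.8, 166.6 and 184.9 on CORT, and 158.6, 195 and 177.6 on T3 + CORT. The 6 arrays with CORT were below every array without it. On CORT the log2 fold change was -0.45 (standard error 0.09, adjusted p = 0.0031) and -0.41 on T3 + CORT (adjusted p = 0.0059), both kept without any 1 array, and T3 + CORT against T3 gave -0.25 (adjusted p = 0.062). *Irgm1*, a regulator of the other immunity-related GTPases and of autophagy, was read by 3 probes. ILMN_1234539 gave 405.4, 422.6 and 399.6 on vehicle, 504.4, 424.7 and 401.2 on T3, 364.3, 310.6 and 345.6 on CORT, and 325.6, 310 and 331.9 on T3 + CORT. All arrays with CORT were again the lower ones, with -0.34 for T3 + CORT against vehicle (adjusted p = 0.017), -0.45 against T3 (adjusted p = 0.0030) and -0.27 for CORT (adjusted p = 0.054). The brightest *Irgm1* probe (ILMN_2804037) was at -0.18 on CORT and -0.11 on T3 + CORT, with overlapping arrays (adjusted p = 0.36 and 0.58). The T3 + CORT call against vehicle at ILMN_1234539 was lost without vehicle replicate 2 or T3 + CORT replicate 2 (adjusted p up to 0.068), and that against T3 was kept without any 1 array.

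**Figure D3:**
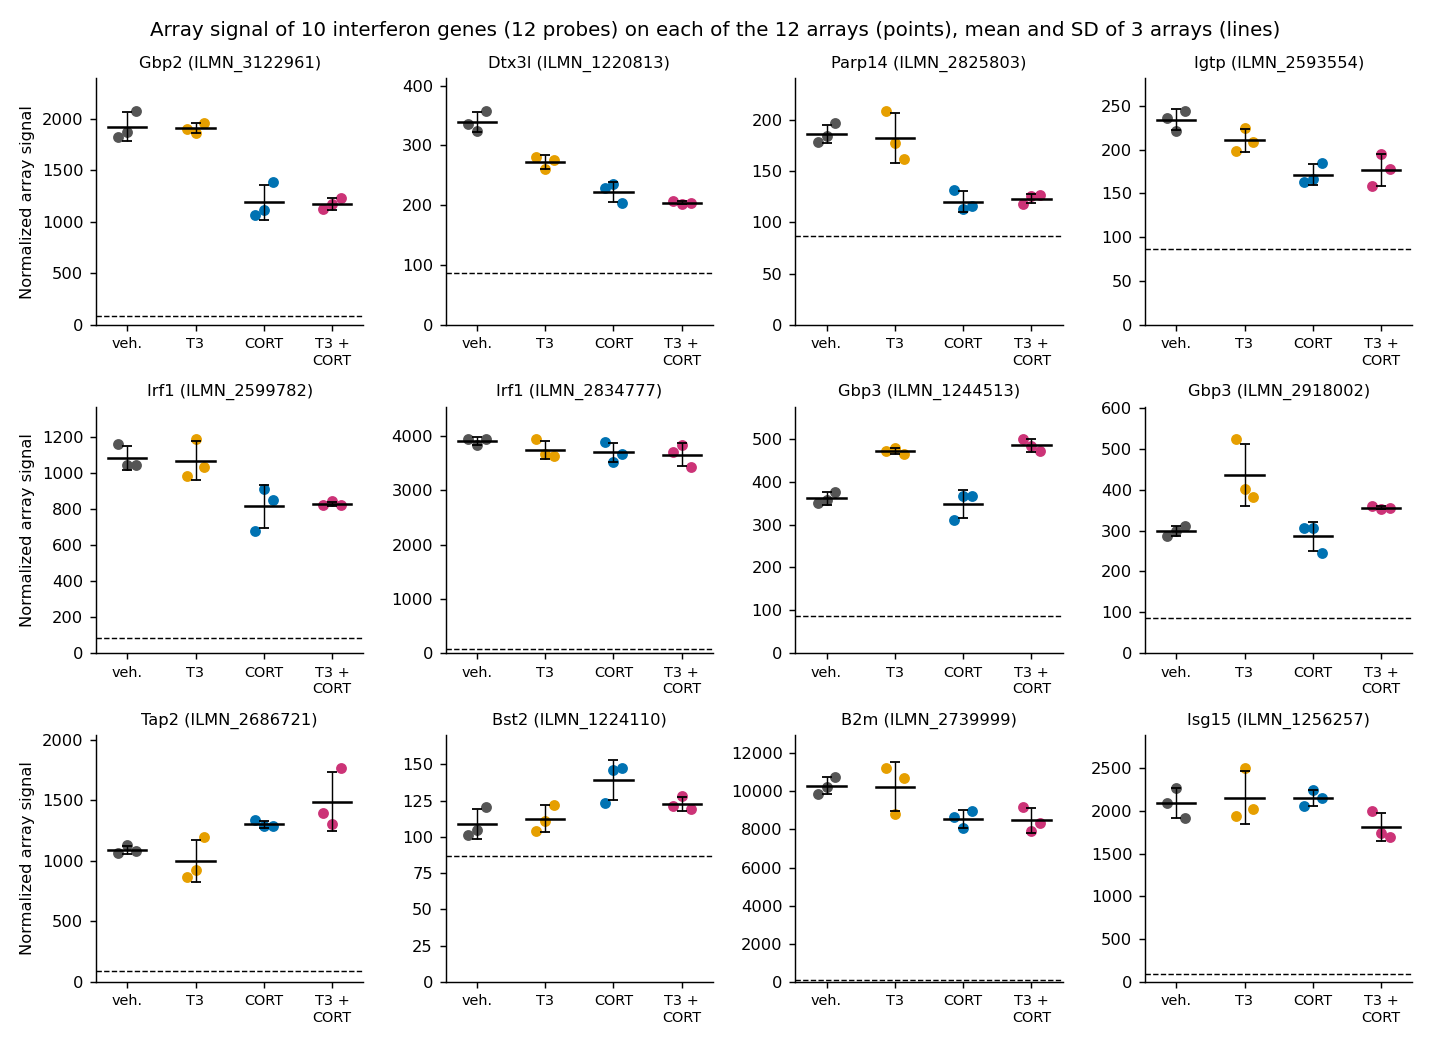
Normalized array signal of 12 probes of 10 interferon genes on each array (points), with the mean and SD of 3 arrays (lines) for vehicle, T3, CORT and T3 + CORT, and the limit of detection at 87.0 (dashed). *Gbp2*, *Dtx3l*, *Parp14*, *Igtp* and *Irf1* at ILMN_2599782 are lower on all 6 arrays with CORT, and *Tap2* is higher on them. Both *Gbp3* probes are higher on all 6 arrays with T3. The share of all tested probes that separate so is not given.

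*Dtx3l*, an E3 ubiquitin ligase that pairs with the ADP-ribosyltransferase PARP9, gave the largest fall of the 46 probes on T3 + CORT. ILMN_1220813 read 335.5, 324.1 and 358.4 on vehicle, 280.8, 260 and 276.4 on T3, 228.1, 235.4 and 203.5 on CORT, and 207.4, 201.9 and 203.6 on T3 + CORT. The vehicle arrays were highest, the T3 arrays lay between, and the arrays with CORT were lowest, with no overlap between these 3 sets. The vehicle mean was 339 ± 17.5 and the T3 mean 272 ± 10.96, while CORT gave 222 ± 16.7 and both hormones 204 ± 2.82 (SD, n = 3 each). The log2 fold change was -0.61 on CORT (standard error 0.08, adjusted p = 9.0e-05), -0.73 on T3 + CORT (adjusted p = 1.8e-05) and -0.41 for T3 + CORT against T3 (adjusted p = 0.0023), all kept without any 1 array. On T3 alone it was -0.32 (95% interval -0.49 to -0.14), with an unadjusted p of 0.0015 in the limma fit and an adjusted p of 0.39. The other *Dtx3l* probe (ILMN_1247917), near the limit with means from 98.7 to 103, was at 0.05 on CORT (adjusted p = 0.73).

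*Parp14*, an ADP-ribosyltransferase whose gene adjoins *Dtx3l* on chromosome 16, fell with it. ILMN_2825803 read 178.8, 183.8 and 196.4 on vehicle, 209, 177 and 161.5 on T3, 131.7, 112.8 and 115.8 on CORT, and 117.9, 125.2 and 126.3 on T3 + CORT. No array with CORT reached any array without it. The log2 fold change was -0.64 on CORT (standard error 0.10, adjusted p = 2.6e-04), -0.60 on T3 + CORT (adjusted p = 4.5e-04) and -0.56 for T3 + CORT against T3 (adjusted p = 7.2e-04), all kept without any 1 array, with the other 2 probes below the limit. *Parp9*, on the other side of *Dtx3l*, was below the limit on every array at both of its probes. *Usp18*, the protease that removes ISG15 and dampens type I receptor signalling, lay near the limit. It read 110.6, 115.8 and 104.5 on vehicle, 106.5, 89.4 and 98.3 on T3, 86.3, 85.1 and 90 on CORT, and 88.4, 91.7 and 97.8 on T3 + CORT. The arrays with CORT were below the vehicle arrays, 2 of them under 87.0. With CORT its log2 ratio to vehicle was -0.34 (standard error 0.08, adjusted p = 0.0073), kept without any 1 array, and -0.25 on T3 + CORT (adjusted p = 0.036), lost without vehicle replicate 1 or 2 or T3 + CORT replicate 1 or 2 (adjusted p up to 0.13) and with no filter on dim probes (0.073).

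*Isg15*, the ubiquitin-like modifier itself, did not follow these. It read 2097.3, 2268.3 and 1920.8 on vehicle, 1944, 2510.9 and 2022.9 on T3, 2063.7, 2244.3 and 2157.3 on CORT, and 1995.5, 1741.5 and 1700.9 on T3 + CORT. Only the T3 + CORT arrays tended low, and they overlapped vehicle. Its log2 fold change was 0.04 on CORT (95% interval -0.17 to 0.25, adjusted p = 0.81) and -0.21 on T3 + CORT (95% interval -0.42 to 0.00, adjusted p = 0.15), and its window holds the most ISRE core matches of the 5 printed.

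The antiviral effectors gave the small rises of the list. *Bst2*, which encodes tetherin, a membrane protein that holds budding virions, read 101.3, 104.6 and 120.4 on vehicle, 103.9, 111.2 and 122.3 on T3, 123.7, 146.4 and 147.9 on CORT, and 121.3, 128.4 and 119.2 on T3 + CORT. The CORT arrays were above all vehicle arrays (log2 fold change 0.36, standard error 0.10, adjusted p = 0.014), and T3 + CORT overlapped vehicle at 0.18 (adjusted p = 0.19). *Oasl1*, a protein related to the oligoadenylate synthetases, read 119, 120 and 113.8 on vehicle and 142.9, 154.3 and 140.4 on CORT at ILMN_2793464, with no overlap and a log2 fold change of 0.31 (adjusted p = 0.049). Its second probe gave 0.25 on CORT (adjusted p = 0.079), and on T3 + CORT the probes gave 0.07 and 0.01. The *Bst2* call was lost without vehicle replicate 1 or 2 or CORT replicate 2 or 3 (adjusted p up to 0.069), and the *Oasl1* call was kept in 4 of the 12 fits that each left out 1 array, being lost without any vehicle or CORT array, T3 replicate 3 or T3 + CORT replicate 3 (up to 0.15). *Oasl1* was not called either with no filter on dim probes (adjusted p = 0.075), with the limit taken from the normalized values alone (0.059) or after normexp and quantile normalization (0.053).

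*Ifit3*, an antiviral protein of the tetratricopeptide repeat family, was the 1 effector called lower. ILMN_2944666 read 203.2, 195.4 and 201.3 on vehicle and 147.6, 162 and 182.8 on T3 + CORT, without overlap (log2 fold change -0.29, adjusted p = 0.045). This call was kept in 5 of the 12 such fits and lost without any vehicle array, T3 replicate 3, CORT replicate 2 or T3 + CORT replicate 1 or 2 (up to 0.19). It was also lost with no filter on dim probes (adjusted p = 0.081) or with the limit taken from the normalized values alone (0.057), and the second *Ifit3* probe gave 0.07. Its neighbour on chromosome 19, *Ifit2*, was not called at either probe. Its means lay from 820 to 845 at the brighter probe, with a log2 value of 0.03 on CORT (95% interval -0.21 to 0.27), and the other probe gave -0.01 on CORT and -0.03 on T3 + CORT. *Rsad2* (viperin), *Oasl2*, *Ifi35* and *Ifitm3*, which blocks virus entry at the endosome, were not called in any comparison, with log2 fold changes on CORT from -0.08 to 0.07. Between T3 + CORT and CORT 0 of the 11 effector probes were called, against 0.558% of all tested probes. Below 0 were 10 of the 11, where 48.3% of all tested probes were. These probes are of 8 genes read on the same arrays and are not independent. The sign counts of the other roles and comparisons are not given, so nothing is concluded from this one.

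In antigen presentation, the genes moved in opposite directions. *B2m*, beta-2 microglobulin, the invariant chain of MHC class I, read 9866.1, 10255.3 and 10750.3 on vehicle, 11257, 8788.4 and 10692.4 on T3, 8641.1, 8056.7 and 8960.3 on CORT, and 9165, 7905.3 and 8354.5 on T3 + CORT at ILMN_2739999. The arrays with CORT were below those of vehicle, while T3 replicate 2 lay among them. The log2 fold change was -0.27 on CORT (standard error 0.09, adjusted p = 0.037), -0.28 on T3 + CORT (adjusted p = 0.029) and -0.27 for T3 + CORT against T3 (adjusted p = 0.034). At ILMN_1216746 the arrays read 10222.3, 10669.7 and 11904.2 on vehicle, 10847, 7876.7 and 11008.5 on T3, 8836.6, 8722.5 and 9165 on CORT, and 8365.7, 8175.8 and 9101.7 on T3 + CORT. Again the arrays with CORT lay below vehicle and T3 replicate 2 lay lowest of all, with -0.35 on T3 + CORT (adjusted p = 0.021) and -0.29 on CORT (adjusted p = 0.051). These calls were among the less stable. The CORT call at ILMN_2739999 was lost without any 1 vehicle or CORT array (adjusted p up to 0.13), its T3 + CORT call without vehicle replicate 2 or 3 or T3 + CORT replicate 2 or 3 (up to 0.12), its call against T3 without T3 replicate 1 or 3 or T3 + CORT replicate 2 or 3 (up to 0.14), and that of ILMN_1216746 without vehicle replicate 3 or T3 + CORT replicate 1 or 2 (up to 0.10). At ILMN_2739999 the CORT call was lost with no filter on dim probes (adjusted p = 0.054) and the call against T3 when only the T3 and T3 + CORT arrays were fitted (0.095), and neither passed without the mean-variance trend (0.057 and 0.053).

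*Tap2*, a subunit of the peptide transporter that loads MHC class I, rose. It read 1064.7, 1127.4 and 1078.8 on vehicle, 870, 926.2 and 1196.5 on T3, 1335.4, 1285 and 1287.4 on CORT, and 1391.7, 1307.9 and 1771.6 on T3 + CORT. All 6 arrays with CORT were above all 6 without it. T3 + CORT exceeded T3 by a log2 value of 0.58 (standard error 0.12, adjusted p = 0.0023, kept without any 1 array) and vehicle by 0.44 (adjusted p = 0.014, lost without vehicle replicate 1 or T3 + CORT replicate 3, adjusted p up to 0.084), while CORT against vehicle gave 0.26 (adjusted p = 0.13). *Tap1*, the partner subunit encoded close by on chromosome 17, lay near the limit with means from 103 to 116 and was not called.

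The effect of CORT was measured on separate arrays without T3 (CORT against vehicle) and with it (T3 + CORT against T3). Only the fold changes are separate, as the calls in both rest on a spread estimated from all 12 arrays. In the second, 7 of the 46 probes were lower and 1 higher, against 11.5% and 10.8% of all tested probes. Lower in both were 5 probes (*Gbp2*, *Dtx3l*, *Parp14*, *Irf1* at ILMN_2599782 and *B2m* at ILMN_2739999), or 10.9% of the 46, against 6.45% of all tested probes, and 0 were higher in both, against 6.36%. Signs were below 0 in both for 27 probes, against 40.1% of all tested probes, above 0 in both for 9, against 36.6%, and opposite for 10. Across the 46 probes the 2 sets of log2 fold changes had a Pearson r of 0.797, a description over probes that are not independent, and over all tested probes r was 0.804.

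**Figure D4:**
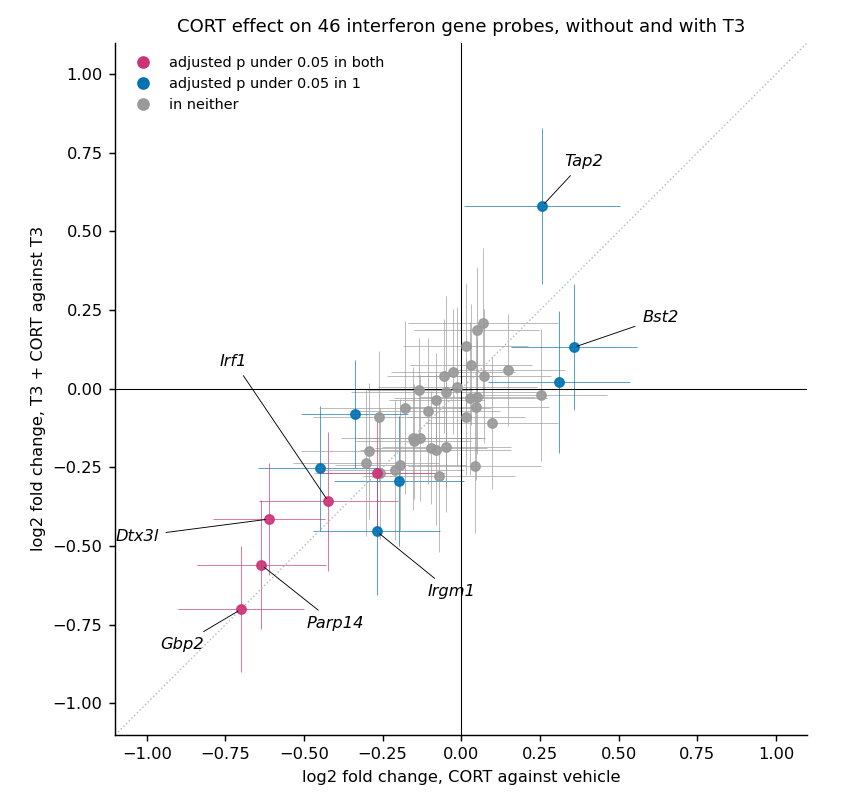
Log2 fold change of CORT against vehicle (x axis) and of T3 + CORT against T3 (y axis) for the 46 tested interferon gene probes, which share no arrays. Bars are 95% intervals, and the dotted line marks equal values. *Gbp2* and *Parp14* lie on or near the line at -0.56 to -0.70, and *Tap2* is the 1 called probe far above 0 on the y axis.

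**Figure D5:**
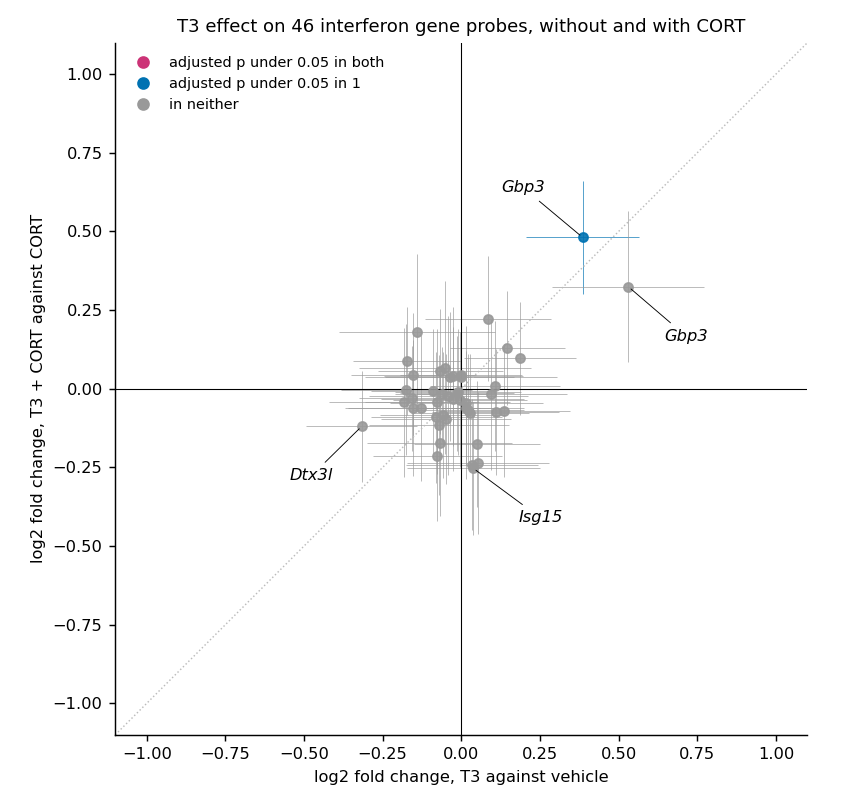
Log2 fold change of T3 against vehicle (x axis) and of T3 + CORT against CORT (y axis) for the same 46 probes, on separate arrays, with 95% intervals. Both *Gbp3* probes are high on both axes, from 0.32 to 0.53, and only 1 of them passed on the y axis.

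The promoter letters were set beside the calls. Of the 11 genes with a probe called lower on CORT or T3 + CORT, 9 had a window and 6 of these held an ISRE core match, as did 7 of the 16 tested genes with a window and no such call and 4 of the 6 that lay below the limit. *Dtx3l* held neither motif. These shares are descriptions, with no test.

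The other interferon pathway genes were 117 listed from general knowledge. Probes were found for 102 of them and 98 probes of 61 genes were tested, with 0 called on T3, in the interaction or between T3 + CORT and CORT. On CORT 15 were lower (15.3%) and 4 higher (4.08%), against 10.8% and 9.87% of all tested probes. On T3 + CORT 24 were lower (24.5%) and 2 higher (2.04%), against 10.6% and 10.1%, and for T3 + CORT against T3 29 were lower (29.6%) and 5 higher (5.10%), against 11.5% and 10.8%. Signalling genes among those lower included the receptor kinase *Jak2*, from a mean of 733 on vehicle to 534.5 on CORT at its brighter probe (log2 fold change -0.45, adjusted p = 0.0055), while *Tyk2* was lower at a probe near the limit (-0.31, adjusted p = 0.018) and at 0.01 on CORT at its brightest probe (adjusted p = 0.96). *Psmb10*, a subunit of the immunoproteasome, was split between its probes, with means of 1062 on vehicle and 685 on T3 + CORT at ILMN_2757870 (-0.64, adjusted p = 0.0028) and 1301 and 1302 at the brighter ILMN_2914843 (adjusted p = 1.0). *Psme1* and *Psme2*, which encode the proteasome activator PA28, fell by 0.47 and 0.59 on the log2 scale on T3 + CORT (adjusted p = 3.1e-04 and 0.0018). The chemokine gene *Cxcl10* went from 638 to 452 on T3 + CORT (-0.50, adjusted p = 0.037). *Trim25*, the ubiquitin ligase that activates RIG-I, rose from 614 to 881 on CORT (0.52, adjusted p = 0.0063) and 920.5 on T3 + CORT (0.58, adjusted p = 0.0028), and *Calr*, calreticulin of the MHC class I loading complex, rose from 984 to 1518 on T3 + CORT (0.62, adjusted p = 0.018). Among the cell type markers, 1 of 3 tested immune probes, 1 of 5 neuronal probes and 1 of 8 fibroblast and mesenchymal probes were called on CORT and on T3 + CORT. *Lyz2* was lower, with means of 135 on vehicle, 100.1 on CORT (log2 fold change -0.43, adjusted p = 8.5e-04) and 102 on T3 + CORT (-0.40, adjusted p = 0.0015). The *Cd74* probes were not called, at -0.19 and -0.31 on CORT (adjusted p = 0.27 and 0.060). *Syn1* was lower at ILMN_1235133 (-0.38 in both, adjusted p = 0.0086 and 0.0085) and not called at its brighter probe (adjusted p = 0.99 and 0.89). *Col3a1* was higher at ILMN_2683958 (0.70 on CORT, adjusted p = 2.4e-04, and 0.45 on T3 + CORT, adjusted p = 0.0068) and not called at its brighter probe (adjusted p = 0.46 and 0.35). The part of these markers in the result was not tested.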

How the data were processed

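RNA of 12 HT-22 samples (4 groups of 3, named by the labels) was hybridized to Illumina mouse bead arrays. Intensity was used as the authors deposited it. The paper states that BeadStudio (version not given in the sources used here) did the normalization, with the rank invariant option. The deposited values have the same distribution on all 12 arrays. Whether that option alone gave this shared distribution was not tested. The values were taken to log2 with no further correction. The authors also deposited detection p-values, in a table of unnormalized signal, and these set the limit of detection, 87.0, the normalized signal at the rank of the dimmest probe with a detection p under 0.05. Only 6 of the 12 detection columns held signal (36.5% to 37.6% of probes detected, against 3.93% to 5.40%), and which samples they belong to was not established, so for every array the limit rests on the distribution that the arrays share. The 12 signal columns of that table match no sample label and were not used, and the normexp alternative (offset 16) was therefore run on the normalized values.

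Probes at or above the limit on at least 3 of 12 arrays entered a limma fit (version 3.58.1, R 4.3.3, functions lmFit and eBayes with trend), from which 6 contrasts were read. Precision is limited by the number of arrays. The annotation gives 1 symbol to 34885 probes, several to 18 and none to 10378. Members and lists were chosen with earlier results of these data known. Named with values are member probes past an adjusted p of 0.05, and given on every array are those also past 1.5-fold, the 10 others with the smallest p on CORT or T3 + CORT, and *Irf1*, *Stat2*, *Irf9*, *B2m* and *Isg15*. Genes outside this rule were named after their values were seen. On data simulated for CORT against vehicle over 17746 probes, 200 of them changed, 24% of probes changed 1.25-fold and 98% changed 1.5-fold were recovered. In the data 1751 probes were called higher and 1925 lower on CORT. With so many more calls the adjusted threshold differs, so these shares do not give the recovery in that comparison. Alternatives were the normalization and the filter on dim probes (none, stricter, or a limit of 71.4). That limit came from the normalized values alone and was chosen after seeing the data. Others were the groups in the fit, the variance trend, array weights, a replicate block, a Welch t-test on log2 values, and each array left out.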

Additional observations from a re-analysis of the deposited data

How the results depend on the processing

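Among the values of single named probes, 576 kept their direction and their side of the threshold under the alternatives, 117 kept the direction and lost the call, and 0 reversed. On T3 the count of called probes went from 0 to 1 with array weights, and lay between 0 and 1 with each array left out in turn. At the study's limits it lay between 0 and 1 on T3 and between 2 and 3 on CORT and on T3 + CORT. On CORT the 9 calls became 14 when the other groups were left out of the fit and 15 with array weights, and 5 to 14 with an array left out (5 without vehicle replicate 1, 14 without T3 replicate 2). On T3 + CORT the 15 calls became 8 to 18 (8 without vehicle replicate 1 or 2 or T3 + CORT replicate 2), against CORT the 1 call became 0 to 1, and against T3 the 8 calls became 6 to 11. These counts are given without the share of all tested probes under each alternative. Whether they moved apart from that share is not shown. The paper names a Welch t-test for synergy only, and no test for its gene lists. Here a Welch t-test between the groups of each comparison was run on log2 values, a use the paper does not describe. After Benjamini-Hochberg it called 0 members on CORT, 2 on T3 + CORT (*Gbp3* and *Parp14*), 0 between T3 + CORT and CORT and 0 between T3 + CORT and T3. Its unadjusted p was under 0.05 for 14, 16, 2 and 8 member probes in these comparisons, without a matching count over all tested probes. The cause of the loss was not tested. The t-test and the fit of only the groups compared give no interaction value. The replicate block called 0 members on T3, 12 on CORT, 17 on T3 + CORT, 1 and 9 for T3 + CORT against CORT and T3, and 0 for the interaction. The replicate numbers were not used to pair arrays in the main fit. Of 18 same-numbered pairs, 6 had deviations that correlated above 0.1 (range -0.27 to 0.45). The mean r was 0.034 for these pairs and -0.017 for pairs with other numbers, and 6 of 12 arrays correlated best with their own number. This description does not exclude pairing. Signals near 87.0, such as those of *Usp18*, *Bst2*, *Tap1* and *Oasl1*, lie close to the background, which limits how well their fold changes are measured.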
